A study of Mus musculus with 4 samples.

Results

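The genes described here encode the enzymes and helper proteins that turn newly made procollagen into secreted collagen, namely the prolyl 4-hydroxylase subunits P4ha1, P4ha2, P4ha3 and P4hb, the lysyl hydroxylases Plod1, Plod2 and Plod3, the collagen chaperone Serpinh1 and the propeptide-processing genes Bmp1 and Pcolce. They were listed by symbol. Each was read from the probe sets that the array's annotation assigns to that single symbol, with the brightest over the 4 arrays standing for the gene. Of the 10 genes 9 were measured, among 17097 genes in all. P4ha1 had no probe set with its symbol alone and is not analysed here.

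Mouse mammary gland cells were transplanted as 10000 BC cells alone, the condition the labels call multipotent, or as a control mixture of 2000 BC cells with 8000 LC cells, called unipotent. Cells were sorted 3 days after transplantation, and RNA of 50 sorted cells was hybridised to each array, with 2 arrays for BC alone and 2 for the BC and LC control. The labels leave BC and LC unexplained, and workers on this gland commonly use them for basal and luminal cells. No source used here gives the strain, genotype, age, sort gate or animals of an array, so the p-values reflect no more than the spread among these arrays, and that spread may be technical. Values are log2 expression from RMA, the authors' array normalization, so that 1 unit is a 2-fold difference, and replicate 1 is given before replicate 2. Differences are BC alone minus control, with the standard error (SE) of limma's linear model over all genes. The number of arrays limits the precision, and LC cells and BC cell number differ together between the groups and cannot be told apart.

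Collagen chains are modified inside the endoplasmic reticulum before they fold. Prolyl 4-hydroxylase, made of catalytic alpha subunits and the protein disulfide isomerase P4hb, hydroxylates prolines and thereby stabilises the triple helix, while lysyl hydroxylases prepare lysines for glycosylation and for crosslinking. Serpinh1, also called HSP47, binds the folded helix until it leaves the endoplasmic reticulum. Outside the cell, Bmp1 cuts the C-terminal propeptide of fibrillar procollagens, and Pcolce enhances that cut. In the mammary gland fibrillar collagen is made largely by stromal fibroblasts, and it surrounds the epithelium.

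All 9 measured genes had a higher mean in BC alone, where 46.7% of all genes did. For 8 of the 9, all but Pcolce, both BC alone arrays lay above both control arrays, which held for 16.8% of all genes, for 31.2% of genes at mean log2 levels from 6 to 8 and for 36.8% at levels from 8 to 10. Of the 9 genes 4 lie in each of these ranges of level, and P4ha3 lies at 4 to 6, where the share was 13.3%. Log2 differences ran from 0.905 for P4ha3 to 2.01 for Plod2, with a median of 1.33, against a median of -0.04 over all genes, 0.40 at levels from 6 to 8 and 0.79 at levels from 8 to 10. None of the 9 passed an adjusted p of 0.05 in limma, and 0% of all genes did. Each of the 9 had an adjusted p of 0.842, the smallest over all genes. At an unadjusted p under 0.05 in limma, 2 of the 9 genes passed, Plod2 and P4ha3, beside 3.98% of all genes. With 2 arrays a group, the smallest p of an exact permutation test is 0.333.

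Control replicate 2 was the lowest of the 4 arrays for all 9 genes, as it was for 34.1% of all genes. Its values spanned a narrower range than those of the other arrays, with a standard deviation across probe sets of 1.44 there, against 1.92 on each BC alone array and 1.90 on control replicate 1. Bright genes were lower on it in general. Among the 1455 genes with a mean log2 level from 8 to 10, 96.6% were lowest on control replicate 2, and the median of BC alone minus control replicate 2 was 1.51, while BC alone minus control replicate 1 had a median of 0.015. P4hb, Plod3, Serpinh1 and Bmp1 lie in that range of levels. Among the 4023 genes with a level from 6 to 8, which include P4ha2, Plod1, Plod2 and Pcolce, these values were 68.4%, 0.745 and 0.035. Without control replicate 2 the median difference of the 9 genes was 0.43, against 0.005 for all genes, and both BC alone arrays still lay above control replicate 1 for 8 of the 9, where 33.2% of all genes did. Without control replicate 1 the median was 2.25. Each gene is therefore also given against control replicate 1 alone.

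**Figure D1:**
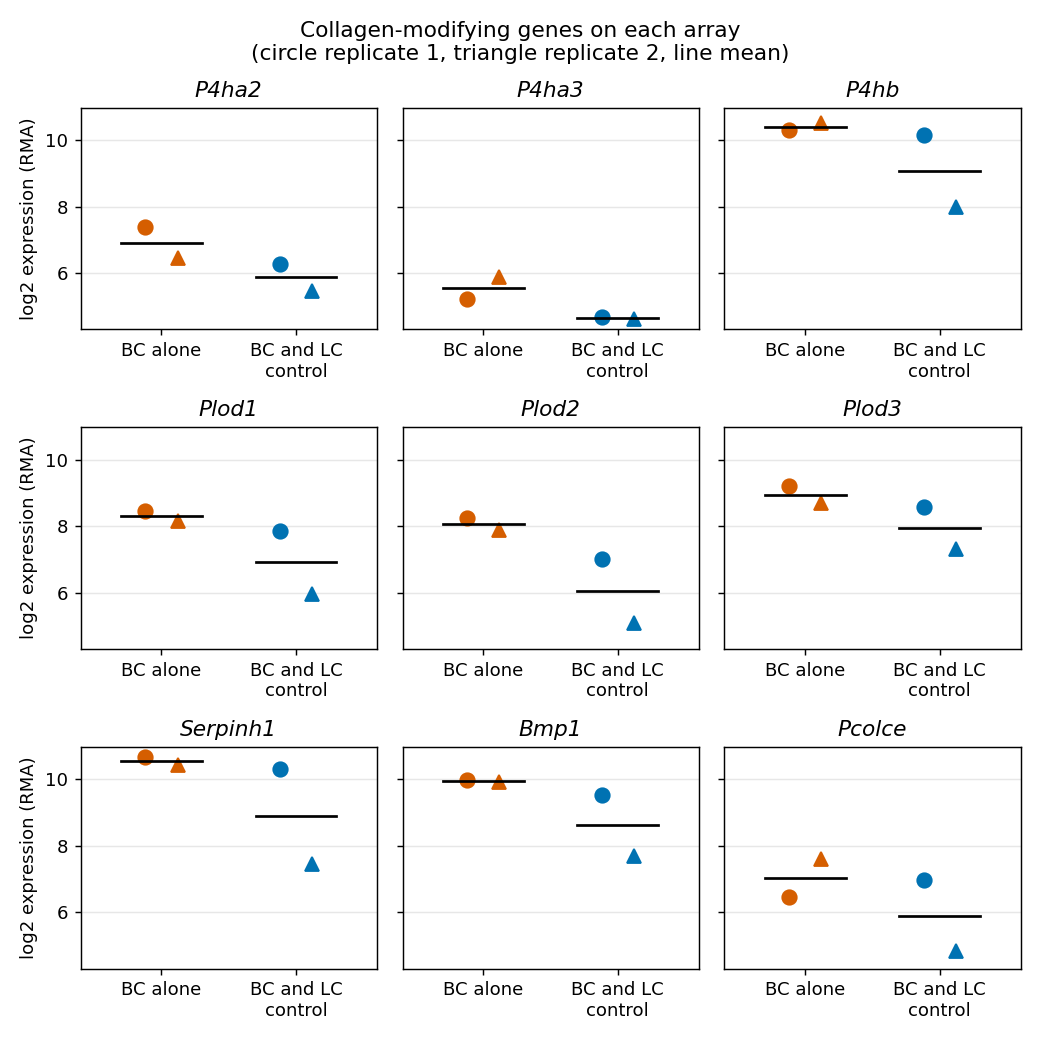
Log2 expression of the 9 measured genes on each array, BC alone in orange and the BC and LC control in blue, with circles for replicate 1, triangles for replicate 2 and a line at the mean of each group. Control replicate 2 is the lowest point in every panel, and control replicate 1 lies below both BC alone arrays in all panels but that of Pcolce.

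The alpha subunits of prolyl 4-hydroxylase were measured for P4ha2 and P4ha3. P4ha2, a catalytic subunit, had log2 values of 7.38 and 6.44 on the BC alone arrays and 6.28 and 5.47 on the control arrays. The groups did not overlap, but the lower BC alone array exceeded the higher control array by less than the BC alone arrays differed from each other, which was 0.94. The log2 difference was 1.035 ± 0.47 (SE), and 0.63 against control replicate 1 alone. P4ha3, another catalytic subunit, had 5.22 and 5.89 on the BC alone arrays and 4.69 and 4.61 on the control arrays. Its control arrays were 0.08 apart, the smallest such gap of the 9 genes. Its difference of 0.905 ± 0.36 (SE, limma, unadjusted p = 0.047, adjusted p = 0.842) was 0.865 against control replicate 1 alone, so that it moved least when control replicate 2 was left out. The P4ha3 probe set was dim, with a mean of 5.555 ± 0.47 on the BC alone arrays and 4.65 ± 0.06 on the control arrays (SD, n = 2), the median over the mean levels of all probe sets being 4.46. No value was tested against background.

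P4hb, the beta subunit and a general disulfide isomerase of the endoplasmic reticulum, had 10.31 and 10.51 on the BC alone arrays and 10.16 and 8.0 on the control arrays. The difference of 1.33 ± 0.72 (SE) rested mostly on control replicate 2, and against control replicate 1 alone it was 0.25. Both BC alone arrays were still above that control, and the lower of them by less than the gap of 0.20 between them.

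Among the lysyl hydroxylases, Plod2 showed the highest difference of the 9 genes. Plod2 is the enzyme known for hydroxylating lysines in the telopeptides, where collagen crosslinks form. It had 8.25 and 7.89 on the BC alone arrays and 7.02 and 5.10 on the control arrays, a 4.03-fold difference (log2 difference 2.01 ± 0.66, SE, limma, unadjusted p = 0.025, adjusted p = 0.842). Against control replicate 1 alone the difference was 1.05, and it was the only one of the 9 that stayed at least 2-fold higher there, which 2.24% of all genes did. That comparison holds no spread between controls, and the control arrays were 1.92 apart for Plod2. A dimmer Plod2 probe set had 6.99 and 6.24 on the BC alone arrays and 6.10 and 4.05 on the control arrays. That second probe set pointed the same way, at 1.54 over all arrays and 0.515 against control replicate 1 alone.

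Plod1, which hydroxylates lysines within the helix, had 8.46 and 8.17 on the BC alone arrays and 7.87 and 5.96 on the control arrays. The BC alone arrays were 0.29 apart and control replicate 1 lay just beneath them. The difference was 1.40 ± 0.65 (SE), or 0.445 against control replicate 1 alone. A dim second Plod1 probe set, with 3.54 on both BC alone arrays against 3.55 and 4.15 on the control arrays, pointed the other way at -0.31. It lay below the median level of all probe sets. The 3 probe sets annotated to both Gmppa and Plod1 were not used.

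Plod3, which also carries glycosyltransferase activity, had 9.20 and 8.71 on the BC alone arrays and 8.57 and 7.33 on the control arrays. Its difference was 1.005 ± 0.50 (SE), and 0.385 against control replicate 1 alone, which is less than the 0.49 between the BC alone arrays. Plod1 and Plod3 therefore stood closer to control replicate 1 than Plod2 did. Whether the 3 genes differ from one another in response was not tested.

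Serpinh1 had 10.68 and 10.45 on the BC alone arrays and 10.33 and 7.45 on the control arrays. The gap of 2.88 between the control arrays was the largest of the 9 genes and exceeded the difference between groups, 1.675 ± 0.92 (SE). Against control replicate 1 alone Serpinh1 differed by 0.235, about as much as the 0.23 between the BC alone arrays. A second Serpinh1 probe set gave nearly the same picture, with 9.14 and 8.74 on the BC alone arrays and 8.76 and 5.80 on the control arrays. There control replicate 1 lay between the BC alone arrays, and the difference was 1.66 over all arrays and 0.18 against control replicate 1 alone.

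Bmp1, the procollagen C-proteinase, had 9.99 and 9.93 on the BC alone arrays and 9.53 and 7.71 on the control arrays. The BC alone arrays were closer together than for any other of the 9 genes, 0.06 apart. The difference was 1.34 ± 0.62 (SE), or 0.43 against control replicate 1 alone. A second Bmp1 probe set, with 7.96 and 7.51 on the BC alone arrays and 7.26 and 5.80 on the control arrays, differed by 1.205. Another, dim probe set, with 4.18 and 4.70 against 4.32 and 4.01, differed by 0.275 and its groups overlapped.

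Pcolce had 6.47 and 7.62 on the BC alone arrays and 6.98 and 4.83 on the control arrays. Its groups overlapped, since control replicate 1 lay between the BC alone arrays, which were 1.15 apart, the widest gap of the 9 genes. The difference was 1.14 ± 0.79 (SE), and only 0.065 against control replicate 1 alone.

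**Figure D2:**
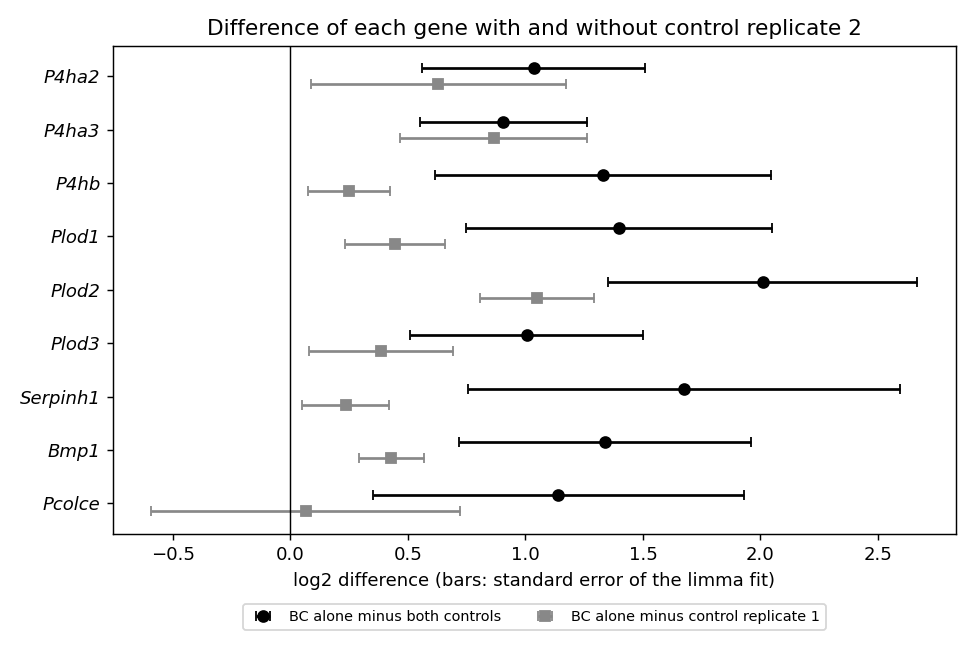
Log2 difference of each gene with the standard error of the limma fit, for BC alone minus both controls (black circles) and minus control replicate 1 alone (grey squares). The grey bars hold no spread between control arrays and cannot be compared with the black bars. Plod2 and P4ha3 keep the highest values without control replicate 2, at 1.05 and 0.865, while P4hb, Serpinh1 and Pcolce lie at 0.25, 0.235 and 0.065.

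**Figure D3:**
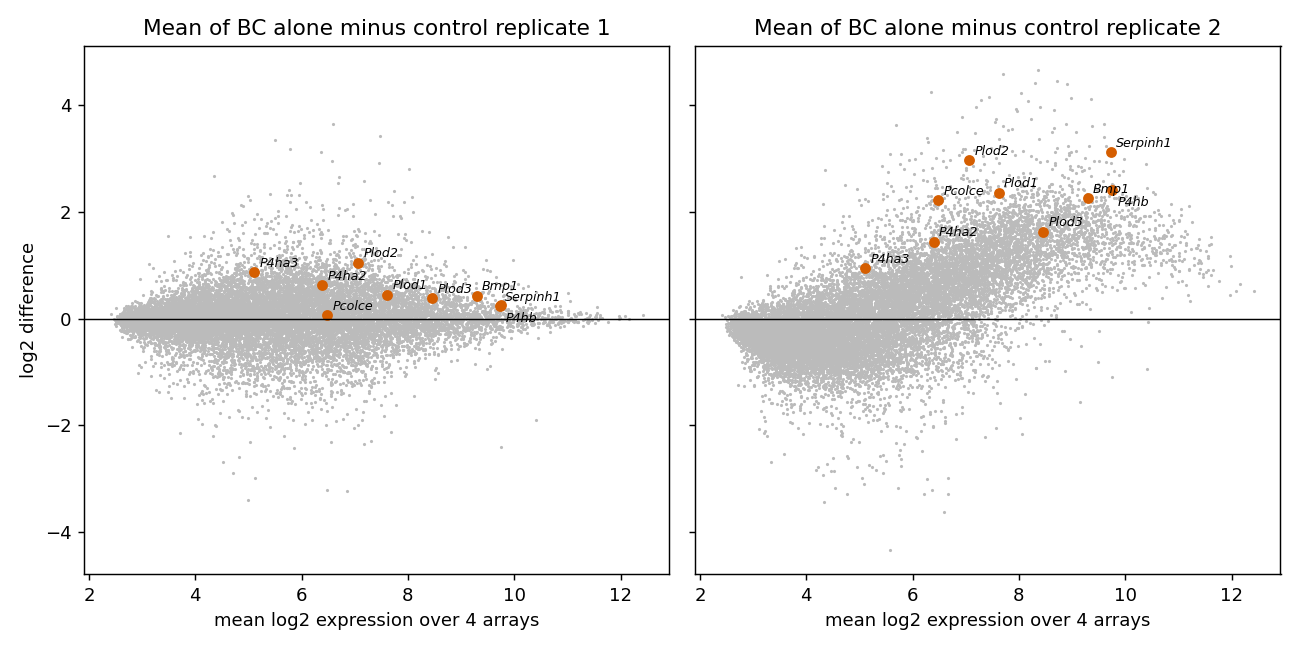
Log2 difference between the mean of BC alone and each control array, plotted against the mean log2 expression over 4 arrays, with all 17097 genes in grey and the 9 genes in orange. Against control replicate 2 the whole cloud climbs with the level, and the median of genes at levels from 8 to 10 is 1.51, whereas against control replicate 1 it stays level, at 0.015.

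The size of the differences depended on the scaling, but their sign did not. After another quantile normalization of the deposited values the 9 differences ran from 0.355 for Plod3 to 1.84 for Plod2, with a median of 0.94, and after cyclic loess from 0.32 to 1.55, with a median of 0.83. P4hb was 1.33 as deposited, 0.61 after quantile normalization and 0.48 after cyclic loess, and Bmp1 was 1.34, 0.625 and 0.55. Plod3 was 1.005, 0.355 and 0.32, and Serpinh1 was 1.675, 1.015 and 0.83. These 4 genes, all at mean levels from 8 to 10, shrank by more than 1.5 times in both scalings, and Plod1, at 1.40, 1.06 and 0.83, in cyclic loess alone. P4ha3 hardly moved, at 0.905, 0.94 and 0.96. In both scalings 8 of the 9 genes kept both BC alone arrays above both controls, beside 16.5% and 16.9% of all genes. Median centring moved the median of all genes by 0.125 and the 9 genes with it.

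**Figure D4:**
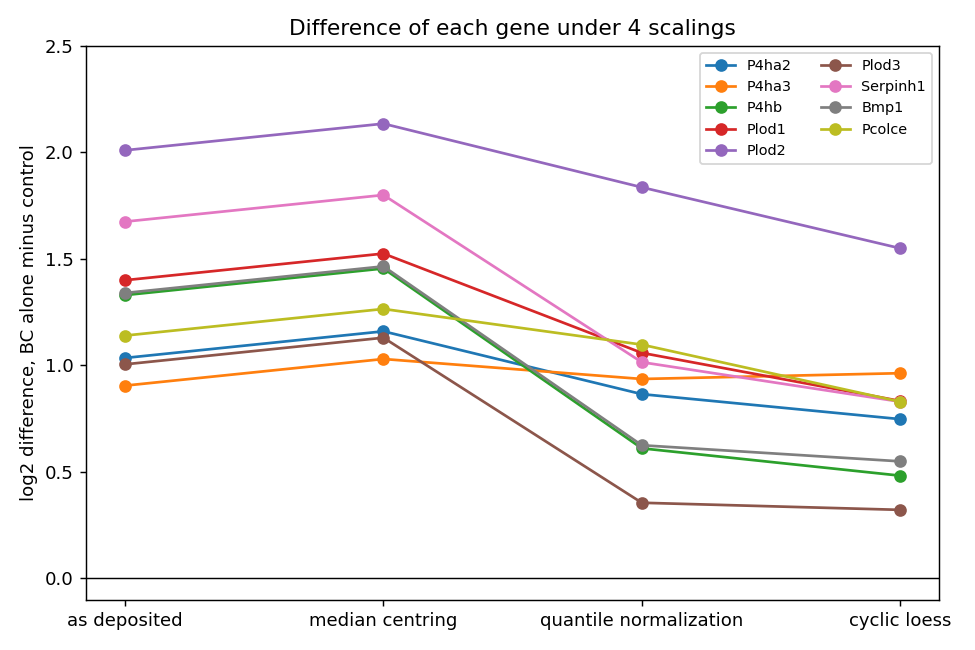
Log2 difference of each of the 9 genes, BC alone minus control, with the values as deposited and after median centring, quantile normalization and cyclic loess. All values stay above 0, and Plod2 is the highest under each of the 4 scalings, from 1.55 to 2.135.

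Sequence upstream of these genes was available for 8 of the 10, P4ha1 among them, as windows of 300 bases, from 250 before to 50 after the start, from RefSeq on GRCm38.p6. Plod2 and Bmp1 had none. Windows of the other alpha subunit genes, P4ha1 and P4ha3, are not shown. Windows of the alpha and beta subunit genes P4ha2 and P4hb and of the chaperone gene Serpinh1 are shown, and each of these holds the letters ACGTG. They lie at chr11:54100674-54100973 on the plus strand, chr11:120573204-120573503 on the minus strand and chr7:99353190-99353489 on the minus strand, and each is printed 5′ to 3′ along its gene. Capitals mark the letters ACGTG on either strand, a form of the core that hypoxia-inducible factors are known to bind.
P4ha2: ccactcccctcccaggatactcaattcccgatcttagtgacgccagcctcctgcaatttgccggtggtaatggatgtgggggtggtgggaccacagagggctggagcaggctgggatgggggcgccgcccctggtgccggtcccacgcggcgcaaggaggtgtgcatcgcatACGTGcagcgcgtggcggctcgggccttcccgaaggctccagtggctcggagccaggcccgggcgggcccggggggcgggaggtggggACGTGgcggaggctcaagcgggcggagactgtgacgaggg
P4hb: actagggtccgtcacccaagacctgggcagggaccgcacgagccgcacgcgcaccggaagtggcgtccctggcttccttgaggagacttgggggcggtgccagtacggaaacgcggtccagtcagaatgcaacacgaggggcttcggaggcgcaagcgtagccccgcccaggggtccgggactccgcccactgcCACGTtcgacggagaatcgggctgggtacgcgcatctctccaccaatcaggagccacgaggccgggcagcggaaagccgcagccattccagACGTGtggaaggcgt
Serpinh1: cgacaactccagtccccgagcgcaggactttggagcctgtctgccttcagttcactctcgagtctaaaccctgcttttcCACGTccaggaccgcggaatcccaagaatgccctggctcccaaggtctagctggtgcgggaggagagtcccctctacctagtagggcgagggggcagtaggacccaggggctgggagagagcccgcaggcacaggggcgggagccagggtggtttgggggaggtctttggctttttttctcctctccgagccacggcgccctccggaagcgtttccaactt
P4ha2 and P4hb each held 2 matches and Serpinh1 held 1. ACGTG occurred in 5 of the 8 windows, beside 19.6% of the 32851 windows in the table. The windows of Plod1, Pcolce and P4ha3, not shown, held none. GCGTG, the other form of that core searched, occurred in 6 of the 8, beside 32.4% of all windows, and was absent from those of Serpinh1 and P4ha3. The GC box GGGCGG, searched on both strands, occurred in 7 of the 8, beside 35.7% of all windows. The CCAAT box occurred in 2 of the 8, beside 37.4%. These matches describe the letters in the windows.

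Other genes of the same pathway were divided. Of 21 listed genes for collagen folding, glycosylation, export and propeptide processing 17 were measured, and 13 of them had a higher and 4 a lower mean in BC alone. For 8 of the 17 both BC alone arrays lay above both controls, beside 16.8% of all genes and 31.2% of genes at levels from 6 to 8. For 2 of the 17 both lay below both controls, beside 19.6% of all genes. The median difference was 0.855, or 0.42 after quantile normalization and 0.22 after cyclic loess, and 0.215 against control replicate 1 alone. None passed the adjusted p in limma, in either direction. At an unadjusted p under 0.05 in limma 5 of the 17 passed with a higher and 1 with a lower mean, beside 3.98% of all genes.

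Pcolce2, a second enhancer of procollagen C-proteinase, had the largest difference of these genes. It had 6.61 and 7.04 on the BC alone arrays and 3.48 and 4.88 on the control arrays, a log2 difference of 2.645 ± 0.53 (SE, limma, adjusted p = 0.842, and adjusted p = 0.0003 where limma's prior variance may vary with level). With that varying prior, genes of like level had nearly the same SE, whatever their own spread. The groups stood far apart, and unlike the 9 genes above Pcolce2 was lowest on control replicate 1, against which it differed by 3.345. Pcolce, its relative, differed by 0.065 in that same comparison. Crtap, a partner of the prolyl 3-hydroxylase P3h1, had 8.67 and 8.56 on the BC alone arrays and 7.94 and 6.50 on the control arrays, and 0.675 more in BC alone than on control replicate 1. The prolyl isomerase gene Fkbp7, at 7.78 and 8.23 against 7.79 and 4.85, and the collagen-binding glycoprotein gene Sparc, at 11.63 and 11.65 against 11.31 and 9.58, differed by 1.685 and 1.195. Against control replicate 1 alone Fkbp7 and Sparc differed by 0.215 and 0.33.

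Fibrillar collagen chains, which these enzymes act on, had a higher mean for 8 of 11 genes and both BC alone arrays above both controls for 6, beside 16.8% of all genes and 31.2% of genes at levels from 6 to 8, at a median of 0.845. It was 0.50 after quantile normalization, 0.52 after cyclic loess and 0.575 against control replicate 1 alone. Col5a2 had 9.88 and 9.65 on the BC alone arrays and 8.77 and 5.11 on the control arrays. Col5a3 had 8.08 and 7.05 on the BC alone arrays and 5.52 and 4.94 on the control arrays, and Col5a1 had 10.21 and 9.88, against 9.30 and 6.90. The groups did not overlap for these probe sets. Col5a3 had an adjusted p of 0.842 in limma and of 0.016 with a prior variance that may vary with level. A dimmer Col5a3 probe set, at 4.49 and 3.14 on the BC alone arrays and 3.30 and 3.42 on the control arrays, overlapped. Col1a1, which encodes a type I chain, had 10.84 and 10.91 on the BC alone arrays and 10.30 and 8.62 on the control arrays. Col1a2 was read from a single dim probe set, with 4.12 and 3.91 on the BC alone arrays and 3.73 and 4.42 on the control arrays, and its difference of -0.06 turned above 0 under each of the 3 other scalings.

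General chaperones of the endoplasmic reticulum had a median difference of 0.785 over 13 genes, 10 with a higher and 3 with a lower mean, but 0.05 after quantile normalization, 0.03 after cyclic loess and 0.04 against control replicate 1 alone. Both BC alone arrays lay above control replicate 1 for 4 of these 13, against 8 of the 9 hydroxylase, chaperone and processing genes and 33.2% of all genes. The difference between the lists was not tested. Hspa5, the chaperone BiP, had 9.17 and 9.75 on the BC alone arrays and 9.39 and 7.51 on the control arrays, so that control replicate 1 lay between the BC alone arrays. Hsp90b1 had 10.88 and 10.97 in BC alone against 10.90 and 9.0, and differed by 0.025 from control replicate 1 alone. Creld2 differed by 1.175 with both controls and by 0.28 from control replicate 1. Dnajc3 differed by 1.08 and 0.07, but its 4 other probe sets ran from -0.20 to 0.83, and the mean of its probe sets gave 0.405.

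Prolyl and lysyl hydroxylase genes are known to be induced by hypoxia in other settings. Of 14 other hypoxia-inducible genes 10 had a higher and 4 a lower mean in BC alone. For 4 of the 14 both BC alone arrays lay above both controls, beside 16.8% of all genes and near the 31.2% at levels from 6 to 8. The median difference of the 14 was 0.435, and 0.06 against control replicate 1 alone. It turned to -0.245 after quantile normalization and to -0.28 after cyclic loess. Bnip3, a mitophagy receptor, had 7.77 and 7.27 in BC alone against 6.85 and 5.52, and Vegfa, the endothelial growth factor, had 9.27 and 9.04 against 8.72 and 7.21. A dimmer Vegfa probe set, at 6.51 and 6.71 on the BC alone arrays and 7.0 and 5.91 on the control arrays, overlapped, and the Vegfa difference of 1.19 was 0.67 with the mean of probe sets and 0.49 after cyclic loess. The glucose transporter gene Slc2a1 and Egln3, a hydroxylase of hypoxia-inducible factors, differed by 1.095 and 1.07, but by 0.18 and -0.06 from control replicate 1 alone.

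**Figure D5:**
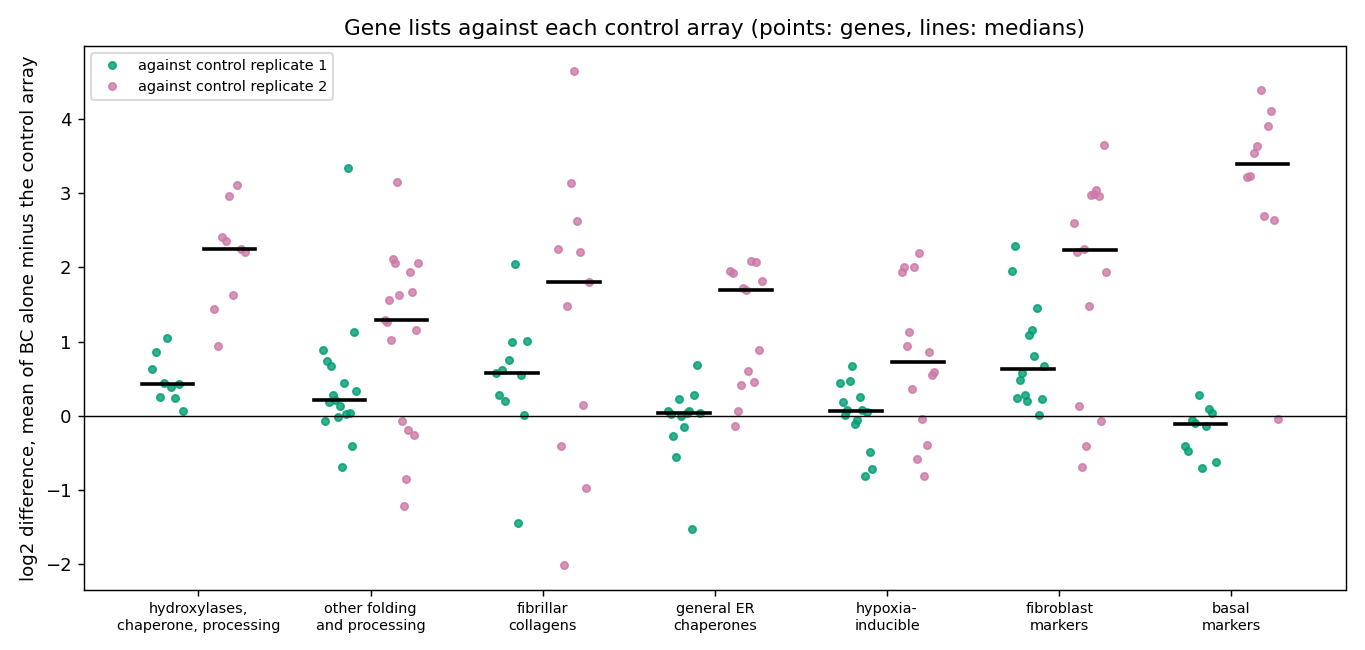
Log2 difference between the mean of BC alone and control replicate 1 (green) or control replicate 2 (pink) for each gene of 7 lists, with a line at the median of each. Against control replicate 1 the medians are 0.43 for the hydroxylase, chaperone and processing genes, 0.215 for the other folding and processing genes, 0.575 for fibrillar collagens, 0.04 for general chaperones, 0.06 for hypoxia-inducible genes, 0.625 for fibroblast markers and -0.12 for basal markers.

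Most fibroblast markers also had a higher mean in BC alone, and none passed the adjusted p in limma. Of 14 fibroblast markers 11 had a higher mean in BC alone, with 12 to 14 under the 3 other scalings, and for 10 both BC alone arrays lay above both controls, beside 16.8% of all genes and 31.2% of genes at levels from 6 to 8, with list medians of 7.56 and 7.835 on the BC alone arrays and 6.385 and 5.585 on the control arrays. Thy1, a surface marker of fibroblasts, had 8.65 and 8.39 on the BC alone arrays and 6.57 and 5.92 on the control arrays. Col1a1, Col1a2 and Col3a1 belong to both the fibroblast and the collagen list. No marker was at 0 on this scale, and Fbln2, Pdgfra and Col1a2 lay below the median level of all probe sets. The 3 markers with a lower mean in BC alone were Fbln2, Col1a2 and Pdgfrb. Of these Pdgfrb was not dim, with 6.74 and 6.62 on the BC alone arrays and 6.20 and 7.37 on the control arrays, a difference of -0.105.
Of 10 basal markers 9 had a higher mean, and the basal keratin gene Krt5 had 10.47 and 10.22 on the BC alone arrays, against 10.76 and 7.12 on the control arrays. Trp63, the basal regulator p63, had 8.74 and 8.76 against 8.81 and 5.20. These markers stood apart on control replicate 2, with medians of 9.98 and 9.635 on the BC alone arrays and 9.765 and 5.685 on the control arrays. Gene by gene, the basal markers had a median difference of -0.12 from control replicate 1 and 3.39 from control replicate 2, and the 11 luminal markers -0.095 and 1.635. For the 4 pericyte markers these values were 1.07 and 1.10, for the 10 endothelial markers 0.68 and 0.665 and for the 4 adipocyte markers 0.60 and 0.315. Macrophage markers had a lower mean in BC alone for 7 of 8, at -0.455 and -0.355. Red cell and platelet markers did for 4 of 4, at -1.12 and -0.655. A lower mean held for 9037 of the 17097 genes. Both BC alone arrays lay below both controls for 3 of the 8 and 2 of the 4, beside 19.6% of all genes. The medians of these 2 lists on the arrays ran from 4.55 to 5.955, and genes at mean levels from 4 to 6 had a median difference of -0.13. The part of these cell types in the differences of the hydroxylase, chaperone and processing genes was not tested. In such pooled RNA, fewer cells of a type and less RNA per cell cannot be told apart.

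The 9 genes were not equally alike in pattern. As a measure of likeness, the values of each gene were centred on its own mean over the 4 arrays and compared by root mean square distance. Plod1 and Bmp1 were the closest of the 36 pairs, at 0.092 log2 units, and P4ha3 and Serpinh1 the farthest, at 1.11. The mean profile of the 9 genes stood at 0.68 and 0.64 in BC alone, and at 0.17 and -1.49 in the control. Csrp2, a LIM domain protein gene, was nearest to it among all other genes, at 0.030, with 8.30 and 8.34 on the BC alone arrays and 7.81 and 6.16 on the control arrays. Eif3e, a subunit of a translation initiation factor, Yif1a, a protein of transport between endoplasmic reticulum and Golgi, Tmem47 and Lifr, the receptor of leukemia inhibitory factor, followed at 0.047 to 0.050. Such a profile was common, since 3922 other genes lay nearer to it than P4ha3, the farthest of the 9, and 7 lay nearer than Bmp1, the nearest.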

How the data were processed

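Each array has 1 deposited column of log2 values, 1 value a probe set. Per the submitters' processing notes, which name no version, the authors ran RMA with affy. RMA corrects background, normalises quantiles and summarises probes, and it compresses large differences. Since the quantiles are equalised before probes are summarised, probe set values of arrays normalised together need not share 1 distribution. That of control replicate 2 was narrower than those of the others, and whether RMA was run on the 4 arrays together is unknown. No detection calls or genome build for the arrays were at hand. Of 45141 probe sets 28898 had 1 gene symbol in the platform annotation, 551 several and 15692 none. Only single symbols were used, which gave 17097 genes.

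BC alone was compared with the control in limma 3.58.1 under R 4.3.3, by lmFit and eBayes, two-sided, at a threshold of 0.05 after Benjamini-Hochberg adjustment across the 17097 genes. There were 2 residual and 3.50 prior degrees of freedom. In simulated arrays of 17097 genes, with independent normal noise at limma's moderated spread, 50 genes were given each size of change. This fit called 0% of genes changed by 1, 66% of those changed by 2 and 100% of those changed by 3 or 4 on the log2 scale. The simulation held no array of narrower range such as control replicate 2, so these shares do not carry over to the real arrays. There Pcolce2, at 2.645, and Col5a2, at 2.825, did not pass. The genes and lists were chosen with earlier results of these data known. In the other lists the 4 genes with the largest absolute difference, and Col1a1, Col1a2 and Hspa5, are named. Thy1, Pdgfrb, Krt5, Trp63 and the 3 dim fibroblast markers were named after their values were seen, and the motifs were also chosen then. No gene set test was run.

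Alternatives were 3 scalings, the mean of probe sets or each other probe set, leaving out dim genes, a trend or robust variance model, the replicate number as a block, and leaving out each array.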

Additional observations from a re-analysis of the deposited data

How the results depend on the processing

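Of 108 alternative limma values for the 9 genes 107 kept their sign and their side of the threshold, the exception being Plod2 with the replicate number as a block (2.01, adjusted p = 0.022). The trend, robust and block models and leaving out dim genes keep each estimate, so the sign could not turn there. The mean of probe sets also keeps it for the 5 genes with 1 probe set. Of 5 other probe sets of these genes, which were not tested, 4 had the same sign and the dim one of Plod1 had -0.31. The median over the 9 genes ran from 0.43 to 2.25 when arrays were left out. The count with both groups apart and BC alone higher ran from 8 to 9. Over all genes that share also rose, from 16.8% with all arrays to between 28.2% and 38.4%. The number of genes past the adjusted p was 0 in limma as fitted, 97 with an intensity trend and 108 with the replicate block, with 0 in the other alternatives, leaving out each array included. Among other named genes Pcolce2 and Col5a3 passed with the trend (adjusted p = 0.0003 and 0.016) and with the block (0.0004 and 0.0041), and Col5a1 and Col5a2 with the block alone (0.032 and 0.0001). With the trend Plod2 had an adjusted p of 0.159 and the other 8 genes 0.806 or more. The block gave each of the 9 genes the same SE, 0.51, and the trend gave P4hb and Serpinh1 nearly the same, 0.98 and 0.97. Both fits thus took little account of a gene's own spread between arrays. The replicate numbers are not said to mark a shared animal or day, and deviations of same-numbered arrays from their group means correlated at -0.018 over genes, so the block was not taken as a pairing. Col1a2 turned to 0.086 after quantile normalization, 0.065 after median centring and 0.135 after cyclic loess, and ran from -0.405 to 0.285 when arrays were left out, above 0 without BC alone replicate 2 (0.045) and without control replicate 2. Egln3 ran from -0.06 without control replicate 2 to 2.20 without control replicate 1. The hypoxia-inducible list turned to -0.245 after quantile normalization and -0.278 after cyclic loess. The cause was not tested.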
